A study of Mus musculus with 6 samples.

Results

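The 7 genes described here carry out antigen presentation by MHC class II: Cd74, H2-Aa, H2-Ab1, H2-Eb1, H2-DMa, H2-DMb1 and Ciita. They were taken by name from the 33457 features counted in single-nucleus RNA sequencing of mouse hippocampus, and all 7 were present in each of the 6 count matrices. They were followed in every cell class of the 6 libraries, with microglia and border macrophages described in most detail.

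Each library was 1 group, from 9-month-old mice of the B6 strain in which human APOE stands in for the mouse gene and is flanked by loxP sites. The FE3 library came from APOE3 fl/fl mice and the FE4 library from APOE4 fl/fl mice, both labelled as untreated. The TAFE3 libraries came from mice labelled P301S APOE3 fl/fl Aldh1la1CreERT and the TAFE4 libraries from mice labelled P301S APOE4 fl/fl Aldh1la1CreERT (the Cre name is spelled as in the labels), given oil or tamoxifen. P301S is a mutant human tau transgene that gives neurofibrillary tau disease, and the Cre is an astrocyte-driven enzyme that removes the floxed APOE only after tamoxifen. The number of animals in a library was not given in the sources used here, and tau, Cre and oil injection all separated the TAFE oil libraries from the FE libraries, so these cannot be told apart. With 1 library per group no difference has a replicate check. The intervals below are exact 95% intervals that cover counting error only, and no p-value is given.

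MHC class II molecules are pairs of an alpha and a beta chain that show peptides from swallowed material to CD4+ T cells. H2-Aa and H2-Ab1 encode the chains of the mouse molecule H2-A, and H2-Eb1 encodes the beta chain of H2-E, whose alpha chain gene is non-functional in mice of the b haplotype, B6 among them. Cd74 is the invariant chain, which blocks the peptide groove until the complex reaches an endosome, where cathepsins trim it to a short fragment. H2-DMa and H2-DMb1 form H2-DM, which stays in endosomes, exchanges that fragment for peptide and does not itself present. Ciita is the co-activator that switches on the whole set, docking on factors of the Rfx, Creb and Nfy families at a conserved promoter module. In the healthy brain, border macrophages and dendritic cells carry class II, whereas most microglia show little of it.

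In build mm10, the H2 genes lie together in the MHC on chromosome 17: H2-DMa at 34119541 to 34139101, H2-DMb1 at 34153072 to 34160230, H2-Ab1 at 34257689 to 34269419 and H2-Eb1 at 34305867 to 34316674 on the plus strand, and H2-Aa at 34282744 to 34287823 on the minus strand. Ciita lies on chromosome 16 at 10480059 to 10528418, on the plus strand.

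The promoter module could be read in the RefSeq sequences of build GRCm38.p6, which held promoters of 4 of the 7 genes: H2-Aa, H2-Eb1, H2-DMb1 and H2-DMa. The stretches below are shown because they carry the shared letters upstream of genes that behaved differently in the microglia. The 110 bases before the start of H2-Aa lie at chr17:34287824-34287933 on the minus strand and those of H2-Eb1 at chr17:34305757-34305866 on the plus strand. Capitals mark GNAACT and TGATTGG, a Y-box that holds the CCAAT letters on the other strand.
H2-Aa: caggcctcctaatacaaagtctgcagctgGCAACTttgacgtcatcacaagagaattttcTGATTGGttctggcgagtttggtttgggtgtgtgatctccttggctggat
H2-Eb1: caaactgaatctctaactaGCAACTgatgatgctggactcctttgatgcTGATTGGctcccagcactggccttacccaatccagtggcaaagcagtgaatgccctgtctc
H2-DMb1, first stretch: cctaGTAACTgatgatgcta
H2-DMb1, second stretch: actcagTGATTGGtctga
The bases between the capitals numbered 25 in H2-Aa, 24 in H2-Eb1 and 25 in H2-DMb1. The letters were chosen after these promoters had been read, so they are a description and no site of binding. Of 32851 promoter windows of 300 bases, searched on both strands, 42.8% held GNAACT, 7.82% held TGATTGG, and 0.125% (41 windows) held them in this order 20 to 30 bases apart. The 41 windows included those of H2-Aa, H2-Eb1, H2-DMb1 and H2-Eb2. Neither of the H2-DMa windows held the pair.

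After filtering, 9369 to 15918 nuclei per library were used, with median depths of 2090.5 to 2518 UMIs per nucleus over all deposited barcodes. A UMI stands for 1 captured RNA molecule, and levels below are CPM, the UMIs of a gene scaled to a common total of UMIs in each cell class and library. Cells were clustered without class II genes and named from marker genes. The classes called microglia and border macrophages are therefore microglia-like and border-macrophage-like nuclei. Excitatory neurons, used below as cells that should lack class II, were named from 8 markers that were higher there than in other nuclei by modest margins, such as Slc17a7 at 301.8 against 182.4 CPM. Microglia numbered 97 in FE3, 513 in FE4, 868 in TAFE3 oil, 535 in TAFE3 tamoxifen, 1005 in TAFE4 oil and 1497 in TAFE4 tamoxifen. Their summed 16 microglial markers held 13647 to 17820 CPM, with all 16 markers detected in every library. The human APOE level in astrocytes was 12639 and 9404.8 CPM in FE3 and FE4, 16028 in TAFE3 oil against 5139 in TAFE3 tamoxifen, and 18108 in TAFE4 oil against 5160.4 in TAFE4 tamoxifen, so both tamoxifen libraries held less astrocytic APOE RNA than their oil libraries. Libraries also differed in quality: the median mitochondrial share over all barcodes was 3.23% in FE3, 2.01% in TAFE3 oil, 2.81% in TAFE3 tamoxifen and 2.35% in TAFE4 oil, against 0.625% in FE4 and 0.695% in TAFE4 tamoxifen. Pairs of libraries shared 65 to 83 barcodes.

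Microglia of all 4 tau libraries held more class II RNA than those of both libraries without tau. The 7 genes together reached 160.2 CPM [87.6, 268.8] in FE3 and 245.8 CPM [198.4, 301.2] in FE4. They reached 966.8 CPM [898.4, 1039.1] in TAFE3 oil, 1606 CPM [1492.6, 1725.6] in TAFE3 tamoxifen, 1082.8 CPM [1018.3, 1150.4] in TAFE4 oil and 1083 CPM [1029.3, 1138.7] in TAFE4 tamoxifen. In order of level, FE3 and FE4 did not differ beyond counting error, TAFE3 oil lay just below TAFE4 oil and TAFE4 tamoxifen, which did not differ beyond counting error either, and TAFE3 tamoxifen stood above them all. The sum was 6.03-fold higher in TAFE3 oil than in FE3 (log2 2.59 [1.84, 3.47]) and 4.405-fold higher in TAFE4 oil than in FE4 (log2 2.14 [1.83, 2.46]). The FE3 value rests on 14 UMIs in 97 nuclei. With no limit on mitochondrial reads it rested on 127 UMIs in 368 nuclei and the log2 ratio was 1.33, and with class II genes among the clustering genes it rested on 40 UMIs in 98 nuclei and the log2 ratio was 1.25. A single FE3 nucleus called a border macrophage in the main clustering held 26 class II UMIs. Whether the last setting counted it among the microglia was not tested.

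**Figure D1:**
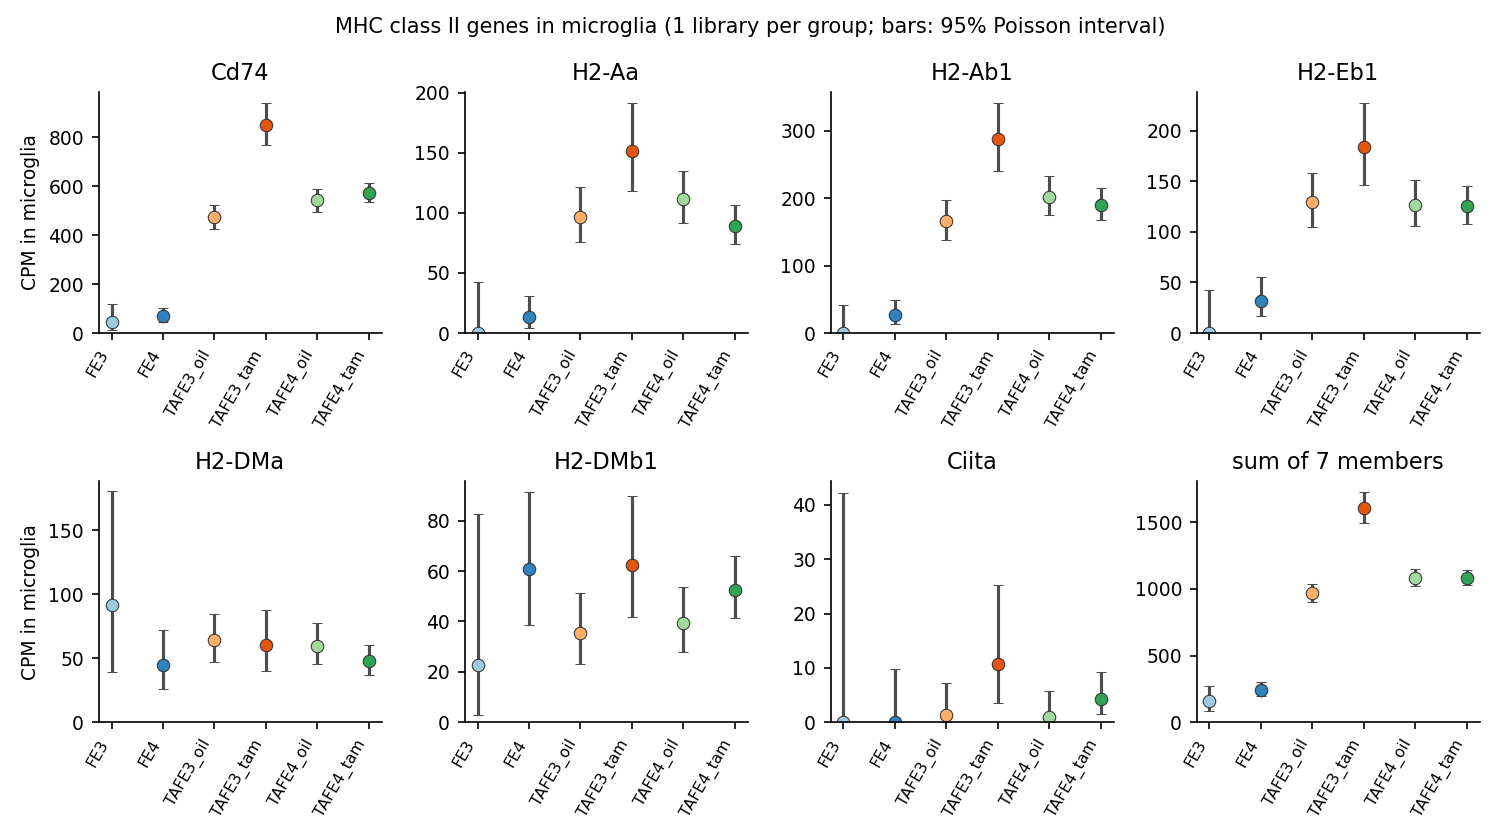
Level of each of the 7 genes in microglia of the 6 libraries, in CPM on linear axes, with exact 95% Poisson intervals and 1 library per group; the last panel is their sum. Cd74, H2-Aa, H2-Ab1 and H2-Eb1 sit higher in the 4 tau libraries than in FE3 and FE4, whereas the intervals of H2-DMa and H2-DMb1 overlap widely.

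Cd74, the invariant chain, was higher in microglia of every tau library than in either library without tau. Its level was 45.8 CPM [12.5, 117] in FE3, on 4 UMIs, and 68.7 CPM [44.9, 101] in FE4. It was 473.6 CPM [426.1, 525.0] in TAFE3 oil, 850.5 CPM [768.6, 938.7] in TAFE3 tamoxifen, 541.9 CPM [496.6, 590.3] in TAFE4 oil and 573.8 CPM [534.9, 614.7] in TAFE4 tamoxifen. No interval of a tau library overlapped that of a library without tau. The ratio was 10.3-fold in TAFE3 oil over FE3 (log2 3.37 [2.002, 5.25]) and 7.89-fold in TAFE4 oil over FE4 (log2 2.98 [2.41, 3.61]). The TAFE3 ratio of Cd74 was log2 1.72 with no mitochondrial limit and 1.44 with class II genes among the clustering genes. A Cd74 UMI was seen in 4.12% of microglia in FE3, 1.56% in FE4, 21.1% in TAFE3 oil, 28.04% in TAFE3 tamoxifen, 24.7% in TAFE4 oil and 26.8% in TAFE4 tamoxifen. After thinning every nucleus to 500 UMIs these shares were 1.03%, 0.780%, 14.6%, 21.7%, 14.6% and 18.2%. Excitatory neurons, which should lack the gene, held a Cd74 UMI in 0.186% to 1.36% of nuclei at the same thinned depth and in 0.696% to 6.71% before thinning, at median depths of 2473 to 2997 UMIs against 697 to 916 in microglia. The thinned share in microglia of the tau libraries was thus above the neuronal share, while in FE4 and FE3 it rested on few nuclei.

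The chain genes of H2-A and H2-E were, like Cd74, higher in the tau libraries. H2-Aa had no UMI in FE3 microglia and stood at 13.2 CPM in FE4, 96.8 in TAFE3 oil, 151.1 in TAFE3 tamoxifen, 111.5 in TAFE4 oil and 89.4 in TAFE4 tamoxifen. H2-Ab1 likewise had none in FE3, with 26.4 CPM in FE4, 166.2 in TAFE3 oil, 287.1 in TAFE3 tamoxifen, 202.3 in TAFE4 oil and 190.1 in TAFE4 tamoxifen. H2-Eb1 had none in FE3, with 31.7 CPM in FE4 and 129.5, 183.5, 127.0 and 125.5 CPM in TAFE3 oil, TAFE3 tamoxifen, TAFE4 oil and TAFE4 tamoxifen. For all of them TAFE3 tamoxifen was highest and both libraries without tau were below every tau library. A count of 0 in FE3 was taken as 3 counts, or 34.3 CPM, which is above the FE4 values, so FE3 and FE4 could not be ordered. On that floor, the TAFE3 oil level was 2.82-fold that of FE3 for H2-Aa, 4.84-fold for H2-Ab1 and 3.77-fold for H2-Eb1. These values are set by the floor and are not lower confidence limits. TAFE4 oil over FE4 gave 8.44-fold for H2-Aa (log2 3.08 [1.81, 4.73]), 7.65-fold for H2-Ab1 (log2 2.94 [2.03, 4.02]) and 4.003-fold for H2-Eb1 (log2 2.001 [1.14, 2.99]).

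H2-DM, the peptide editor, did not follow. H2-DMa stood at 91.6 CPM [39.5, 180.4] in FE3, 44.9 in FE4, 64.1 in TAFE3 oil, 60.4 in TAFE3 tamoxifen, 59.9 in TAFE4 oil and 47.5 in TAFE4 tamoxifen. H2-DMb1 stood at 22.9 CPM in FE3, on 2 UMIs, and at 60.8, 35.3, 62.6, 39.2 and 52.5 CPM in FE4, TAFE3 oil, TAFE3 tamoxifen, TAFE4 oil and TAFE4 tamoxifen. No order by tau was seen in either gene. Summed over both H2-DM chains, the log2 ratio was −0.20 [−1.16, 0.91] for TAFE3 oil over FE3 and −0.09 [−0.64, 0.48] for TAFE4 oil over FE4. Summed over Cd74 and the H2-A and H2-E chains, it was 4.24 [2.88, 6.12] (662 against 4 UMIs) and 2.81 [2.41, 3.24] (952 against 53 UMIs). This sum is called the presenting set for short, although Cd74 does not itself present and H2-E lacks its alpha chain in B6 mice. Cd74 held 362 of the 662 UMIs in TAFE3 oil. The intervals of the H2-DM ratios lie wholly below those of the presenting set in both pairs, so the ratio of H2-DM to the presenting set was lower with tau. H2-DMa overlaps Brd2 on the opposite strand over 3094 bases and H2-DMb1 has the near-identical copy H2-DMb2. No source used here states whether the authors counted by strand, so both genes are uncertain in level. Brd2 stood at 57.2 CPM in FE3 microglia and 79.3 to 96.5 CPM in the others, and its part in the H2-DMa counts was not tested.

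Ciita was near the detection limit. Its UMIs in microglia numbered 0 in FE3, 0 in FE4, 1 in TAFE3 oil, 5 in TAFE3 tamoxifen, 1 in TAFE4 oil and 6 in TAFE4 tamoxifen, and 25888 of its bases overlap Dexi on the other strand. The floor used for ratios stands for 34.3 CPM in FE3 and 7.93 CPM in FE4, so no difference in Ciita could be seen at this depth.

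Against all genes, the members counted as follows. In TAFE3 oil over FE3, 6 members were abundant enough to compare (20 UMIs over both libraries and 3 CPM in either) and 4 were at least 2-fold higher, against 3.49% of 7168 genes, with none lower, against 7.6%. In TAFE4 oil over FE4, 4 of 6 were at least 2-fold higher against 12.3% of 9238 genes, with none lower against 4.05%. The 4 were Cd74, H2-Aa, H2-Ab1 and H2-Eb1 both times. The median log2 ratio of the members was 1.71 and 2.47, beside −0.13 and 0.12 over all genes compared. In FE4 over FE3, 3 members could be compared, none was 2-fold higher (background 3.91%) and H2-DMa was lower (background 6.68%), with a log2 ratio of −1.03. That ratio rests on 17 UMIs in FE4 and fewer in FE3, whose interval for H2-DMa, given above, held the FE4 value. The presenting set differed in that pair by log2 1.61 [0.17, 3.54], on 53 against 4 UMIs, and 17 of the 53 lay in 1 nucleus. The sum of 7 differed by log2 0.62 [−0.20, 1.54], and its sign turned to −0.62 with no mitochondrial limit and to −0.74 with class II genes among the clustering genes.

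Tamoxifen libraries were set against their oil libraries, and the ratios differed between APOE3 and APOE4 tau libraries. No library had tamoxifen without Cre, so tamoxifen itself and the lower astrocytic APOE cannot be told apart. A human APOE UMI was still seen in 90.4% of astrocytes in TAFE3 tamoxifen and 90.2% in TAFE4 tamoxifen. In TAFE3 the sum was 1.66-fold higher with tamoxifen than with oil (log2 0.73 [0.58, 0.88]). By gene, the log2 ratio was 0.84 [0.64, 1.05] for Cd74, 0.79 [0.43, 1.15] for H2-Ab1, 0.64 [0.15, 1.13] for H2-Aa, 0.50 [0.07, 0.94] for H2-Eb1, 0.83 [0.02, 1.64] for H2-DMb1 and −0.09 [−0.81, 0.61] for H2-DMa. In TAFE4 the sum differed by less than counting error (log2 0.00 [−0.11, 0.12]), and the gene ratios were 0.08 [−0.08, 0.24] for Cd74, −0.09 [−0.36, 0.18] for H2-Ab1, −0.32 [−0.70, 0.07] for H2-Aa, −0.02 [−0.36, 0.33] for H2-Eb1 and 0.42 [−0.16, 1.02] for H2-DMb1. No member reached a 2-fold difference in either pair, where 1.85% of genes were that much higher and 3.11% lower in TAFE3, and 3.03% higher and 3.58% lower in TAFE4. The TAFE3 ratio was 1.31 in nuclei of at least 1000 UMIs and 0.29 with no mitochondrial limit. The TAFE4 ratio was −0.66 with at most 1% mitochondrial reads, on 32 UMIs in 21 nuclei of TAFE4 oil, and 0.52 when a further microglial cluster that holds neuronal RNA was counted in. It was 0.18 with no mitochondrial limit and 0.19 in nuclei of at least 1000 UMIs.

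**Figure D2:**
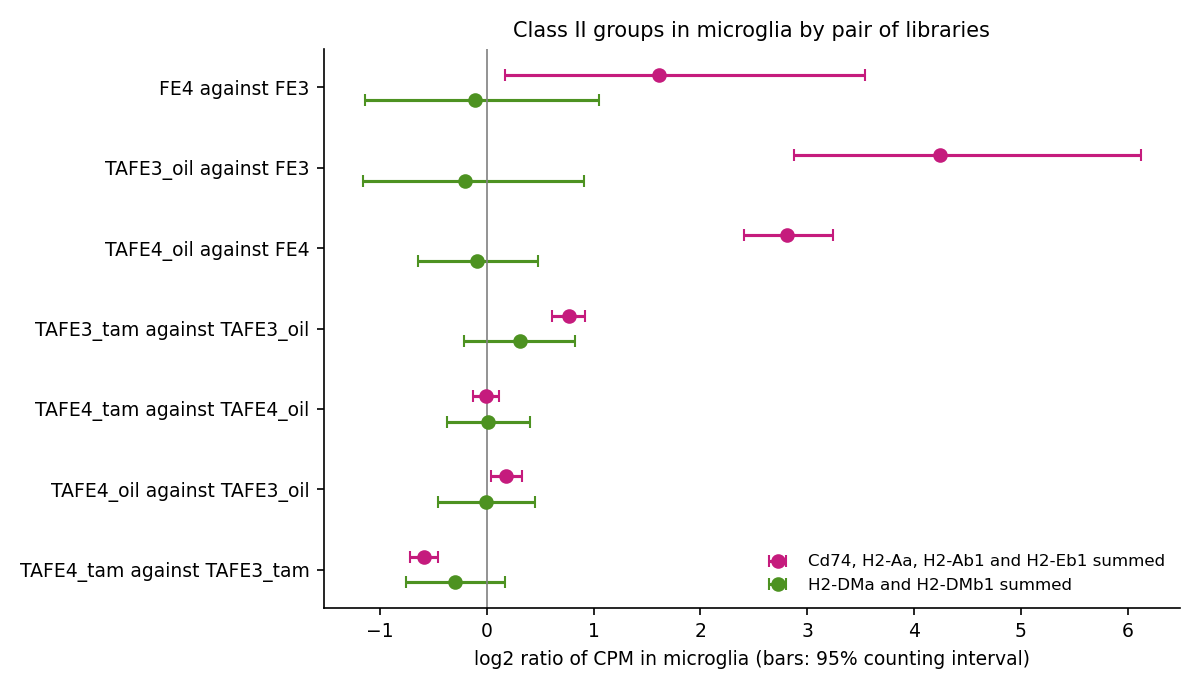
Log2 ratios between pairs of libraries in microglia for the sum of Cd74 with the H2-A and H2-E chains and for the sum of the H2-DM chains, with exact 95% counting intervals. Ratios of the presenting set are well above 0 for both tau oil libraries over their libraries without tau, and ratios of H2-DM include 0 in every pair.

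APOE4 against APOE3 was compared at matched treatment in the tau libraries. With oil, the sum was 1.12-fold higher in TAFE4 than in TAFE3 (log2 0.16 [0.03, 0.30]), and the single-gene ratios of Cd74, H2-Aa, H2-Ab1 and H2-Eb1 lay between −0.03 and 0.28 with intervals that included 0. With tamoxifen, the sum in TAFE4 was 0.674 times that in TAFE3 (log2 −0.57 [−0.70, −0.44]). There the log2 ratio was −0.57 [−0.74, −0.39] for Cd74, −0.76 [−1.19, −0.32] for H2-Aa, −0.59 [−0.90, −0.28] for H2-Ab1 and −0.55 [−0.93, −0.16] for H2-Eb1, and both H2-DM intervals included 0. No member passed 2-fold in either pair, where 2.57% and 5.1% of genes were higher and 1.01% and 2.28% lower. The oil ratio was −0.08 [−0.18, 0.03] with no mitochondrial limit. It was 1.06 with at most 1% mitochondrial reads, on 32 UMIs in 21 nuclei of TAFE4 oil and 35 UMIs in 52 nuclei of TAFE3 oil. Whether the oil ratio differed from 0 thus depended on that filter. The tamoxifen ratio was −0.19 with no mitochondrial limit.

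The make-up of the microglia differed between the libraries, and class II levels differed between the parts. Clustering without class II genes gave 4 subclusters of microglia, in each of which 20 to 31 genes of the microglial lists were at least 2-fold above the other nuclei. Subcluster 2, called homeostatic-like, had 7 listed microglial genes among its 10 leading genes. Subcluster 0 had 2 of them and subcluster 7 was led by interferon-induced genes such as Cxcl10 and Mx1. Subcluster 1 was led by Fyb, Cd84, Ptprc and Irf8, and because none of its 10 leading genes was on the microglial lists and 1, Csf3r, was on the monocyte list, it is given by number only. Csf3r was seen in 28.3% of subcluster 0, 38.6% of subcluster 1, 21.6% of subcluster 2 and 27.5% of subcluster 7, whereas Ccr2, Ly6c2 and S100a8 were each in at most 1.45%. Homeostatic-like nuclei were 70.1% of FE3 and 96.5% of FE4 microglia and 1.29% to 6.01% of those in the tau libraries. Nuclei of subcluster 1 were 1.03% and 1.56% of FE3 and FE4, 32.1% of TAFE3 oil, 39.8% of TAFE3 tamoxifen, 17.6% of TAFE4 oil and 73.9% of TAFE4 tamoxifen. Subcluster 0 made up most of the rest, at 62.0%, 54.0%, 80.8% and 16.6% of the tau libraries in that order. Microglia with and without tau were thus mostly of different subclusters.

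Pooled over libraries, Cd74 with the H2-A and H2-E chains stood at 136.3 CPM [107.7, 170.1] in homeostatic-like microglia, 936.5 CPM [890.9, 983.9] in subcluster 0 and 1140.4 CPM [1090.8, 1191.6] in subcluster 1. These pools mix libraries in unequal shares. In TAFE3 subcluster 0 was below subcluster 1, at 729.7 against 1216.3 CPM with oil and 1125.9 against 2009.0 CPM with tamoxifen, with intervals that did not overlap. In TAFE4 oil subcluster 0 stood at 955.5 CPM [887.2, 1027.7] against 876.7 CPM [750.2, 1018.4] in subcluster 1. In TAFE4 tamoxifen it stood at 1199.3 CPM [1054.7, 1358.3] against 1004.5 CPM [945.6, 1066.3]. Both TAFE4 values were thus higher in subcluster 0, but the intervals overlapped, widely with oil and slightly with tamoxifen. Of the 737 homeostatic-like nuclei in the pool, 68 came from FE3 and 495 from FE4. H2-DM, pooled, stood at 104.8, 94.96 and 111.1 CPM in homeostatic-like microglia, subcluster 0 and subcluster 1. Homeostatic-like nuclei were also lowest within the 3 tau libraries that held at least 20 of them, TAFE4 oil having 13. Subcluster 1 over homeostatic-like nuclei gave 1216.3 against 108.2 CPM in TAFE3 oil (11.2-fold, log2 3.49 [2.12, 5.38]), 2009.0 against 287.4 CPM in TAFE3 tamoxifen (6.99-fold, log2 2.81 [1.67, 4.26]) and 1004.5 against 353.3 CPM in TAFE4 tamoxifen (2.84-fold, log2 1.51 [0.95, 2.13]). Subcluster 0 over homeostatic-like nuclei gave log2 2.75, 1.97 and 1.76 in the same libraries. The H2-DM ratio of subcluster 1 over homeostatic-like nuclei was 0.57 [−0.82, 4.26] in TAFE3 oil (32 against 2 UMIs, the 2 taken as 3), −0.21 [−1.93, 2.16] in TAFE3 tamoxifen and 0.12 [−0.97, 1.46] in TAFE4 tamoxifen. The homeostatic-like values rest on few UMIs, namely 4 in TAFE3 oil, 6 in TAFE3 tamoxifen and 26 in TAFE4 tamoxifen.

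Libraries were also compared within a subcluster. For tau, homeostatic-like microglia of TAFE3 oil over FE3 gave log2 −0.20 [−1.90, 1.33] for the sum of 7, on 6 against 12 UMIs, and subcluster 0 gave 2.61 [1.33, 6.24], on 374 against 2 UMIs with the 2 taken as 3. The counts of this pair are too few to tell whether the tau difference was present in homeostatic-like nuclei. In all 3 of these subclusters FE4 or TAFE4 oil had under 20 nuclei. Homeostatic-like nuclei of TAFE4 tamoxifen held 353.3 CPM [230.8, 517.7] of the presenting set, on 26 UMIs. Those of FE4 held 96.0 CPM [66.9, 133.5], on 35 UMIs, but tamoxifen also separated these libraries. TAFE3 tamoxifen and FE3 held 287.4 CPM [105.5, 625.6] and 46.5 CPM [9.59, 136.0] there, on 6 and 3 UMIs, with overlapping intervals. In the microglial cluster that holds neuronal RNA, the sum gave log2 1.02 [0.24, 1.89] in TAFE3 oil over FE3 and 1.997 [1.50, 2.53] in TAFE4 oil over FE4. For the presenting set, tamoxifen over oil in TAFE3 gave log2 0.72 [0.51, 0.94] in subcluster 1 and 0.63 [0.39, 0.86] in subcluster 0. In TAFE4 it gave 0.20 [−0.04, 0.44] and 0.33 [0.11, 0.54]. TAFE4 over TAFE3 with tamoxifen gave 1004.5 against 2009.0 CPM in subcluster 1, with a log2 interval of [−1.17, −0.83], and log2 0.09 [−0.16, 0.35] in subcluster 0, so a lower level in TAFE4 beyond counting error was seen in subcluster 1. With oil the same contrast gave −0.47 [−0.75, −0.20] and 0.39 [0.20, 0.58], which have opposite signs beyond counting error.

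**Figure D3:**
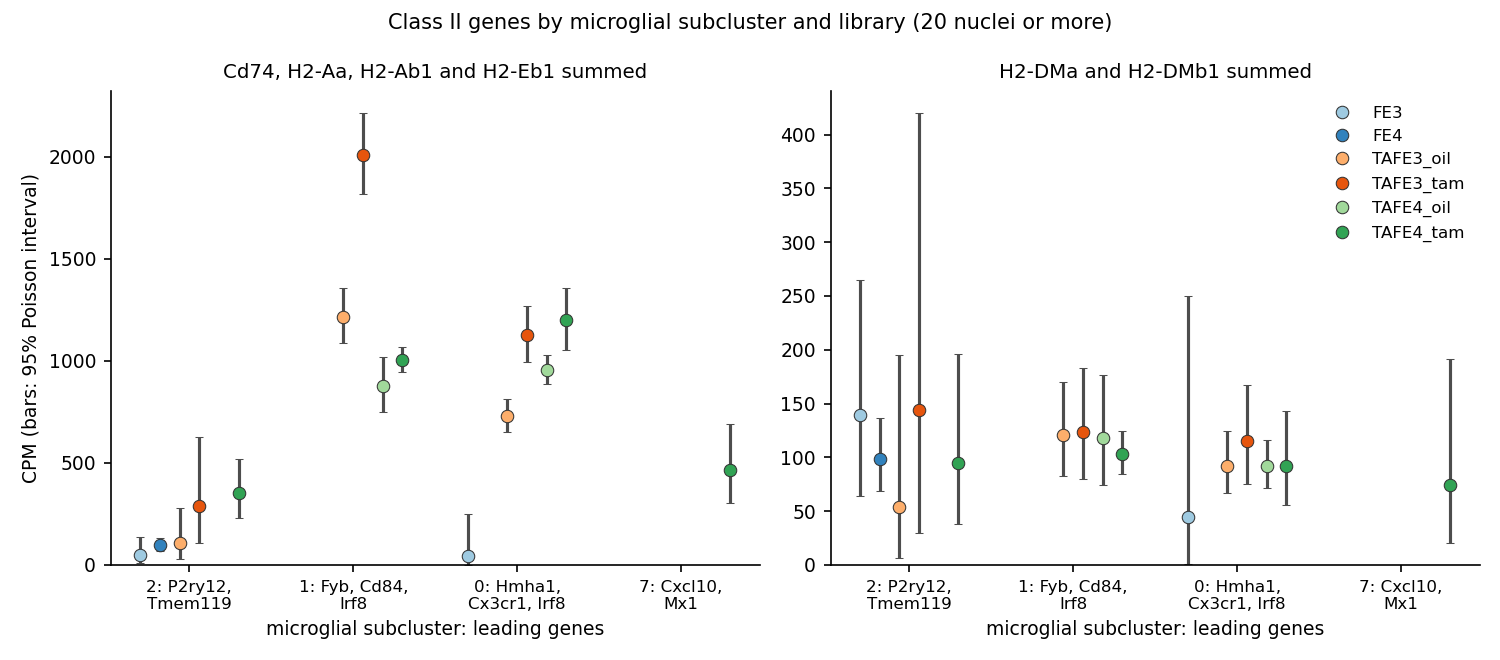
Level of Cd74 with the H2-A and H2-E chains, and of the H2-DM chains, in microglial subclusters 2, 1, 0 and 7 of each library with at least 20 nuclei there, in CPM with exact 95% Poisson intervals. Subcluster 2, the homeostatic-like one, lies below subclusters 1 and 0 for the presenting set within the tau libraries shown, and H2-DM shows no such order.

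Other states moved beside these values, and their part in them was not tested. Summed over 14 disease-associated markers, microglia held 1533.7 CPM in FE3 and 1192.1 in FE4 against 4483.3 to 4761.7 CPM in the tau libraries, and all 14 were detected in each tau library against 7 in FE3 and 9 in FE4. The 8 homeostatic markers summed to 4246.2 and 4157.9 CPM in FE3 and FE4 against 1293.4 to 1653.2 CPM with tau. The 10 interferon-response genes summed to 57.2 and 31.7 CPM without tau, and to 304.8 CPM in TAFE3 oil, 231.2 in TAFE4 oil and 605.0 in TAFE4 tamoxifen, with TAFE3 tamoxifen between TAFE3 oil and TAFE4 tamoxifen. Subcluster 7, of 69 nuclei, held 467.1 CPM of the presenting set in TAFE4 tamoxifen (53 nuclei) against 1004.5 CPM in subcluster 1 (log2 −1.10 [−1.74, −0.53]). Markers of other antigen-presenting cells were counted too. The 7 B-cell markers found summed to 91.6 and 71.4 CPM in FE3 and FE4 microglia and 8.63 to 13.5 CPM with tau, with Pax5 and Blk at 0 throughout. The 10 dendritic markers summed to 286.1 and 187.7 CPM in FE3 and FE4 and 370.2 to 479.2 CPM with tau, with Xcr1 at 0 in all 6 libraries, Ccr7 at 0 in 5, and Itgax shared with the disease-associated list. The 12 border-macrophage markers summed to 389.1 and 547.2 CPM without tau and 241.9 to 296.3 CPM with tau, and the 7 monocyte and neutrophil markers to 412.0 and 304.0 CPM against 390.7 to 558.9 CPM.

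Counts per nucleus were low, with some nuclei far above the rest. No UMI of Cd74, H2-Aa, H2-Ab1 or H2-Eb1 was seen in 95.9% of FE3 and 97.3% of FE4 microglia, and in 64.5% to 71.8% of those in the tau libraries. At these depths a count of 0 does not show that a nucleus lacked the RNA. The highest nucleus held 1 UMI in FE3, 17 in FE4, 38 in TAFE3 oil, 46 in TAFE3 tamoxifen, 52 in TAFE4 oil and 73 in TAFE4 tamoxifen. Across all classes, 123 nuclei held at least 10 class II UMIs, and 61 of them were microglia. None of those 61 held at least 2 B-cell or at least 2 dendritic markers, Itgax and Cadm1 being left out of the dendritic list here. Of the 123, 3 held at least 2 B-cell markers and 4 at least 2 dendritic markers. Few markers can be seen in a nucleus at these depths, so these counts cannot tell which cell types the nuclei were. Among all microglia, 1 nucleus of FE4 held at least 3 B-cell markers, with 7 of the 93 class II UMIs of FE4 microglia. Members were found together in the same nuclei. At 500 UMIs per nucleus, 20.5%, 11.2%, 13.6% and 11.8% of microglia with Cd74 also held H2-Aa in TAFE3 oil, TAFE3 tamoxifen, TAFE4 oil and TAFE4 tamoxifen, against 0.945%, 2.63%, 2.33% and 2.78% of microglia without Cd74. H2-Ab1 was found in 29 of 116 nuclei with Cd74 in TAFE3 tamoxifen and in 15.7% to 22.4% of them in the other tau libraries, against 3.91% to 5.13% of those without, and H2-Eb1 in 12.2% to 18.97% against 1.91% to 2.80%. H2-DMa was found in 0.680% to 3.68% against 2.20% to 3.34%, which shows no such association. In excitatory neurons of the tau libraries, 42 to 83 nuclei held Cd74 after thinning, and 1 of them, in TAFE4 tamoxifen, held another member, H2-Ab1. Each H2 member was in 0.066% to 0.570% of neurons without Cd74, so these counts are too few to tell whether members went together there.

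Border macrophages, the resident macrophages of vessels and meninges, numbered 13, 24, 34, 16, 46 and 49 nuclei in the order above. Their class II sum was 1912 CPM in FE3 (40 UMIs), 150.6 in FE4 (5 UMIs), 941.7 in TAFE3 oil (38 UMIs), 1629.8 in TAFE3 tamoxifen (26 UMIs), 2011.3 in TAFE4 oil (109 UMIs) and 4642.6 in TAFE4 tamoxifen (261 UMIs). A single nucleus held 26 of the 40 UMIs of Cd74 and the H2-A and H2-E chains in FE3, and another held 22 of 23 in TAFE3 tamoxifen, so neither value describes the class. In TAFE4 oil 4 nuclei held 88 of the 109 UMIs, and in TAFE4 tamoxifen 7 nuclei held 202 of the 261, so the comparison between them also rests on few nuclei. TAFE4 tamoxifen over TAFE4 oil gave log2 1.21 [0.88, 1.54] for the sum, with an interval that does not cover the spread between nuclei. Cd74 stood at 2170.1 against 664.3 CPM (log2 1.71 [1.16, 2.29]), H2-Eb1 at 907.2 against 332.1 CPM (log2 1.45 [0.65, 2.31]), H2-Aa at 693.7 against 332.1 CPM (log2 1.06 [0.22, 1.96]) and H2-Ab1 at 729.3 against 608.9 CPM (log2 0.26 [−0.44, 0.97]). Of the 4 members that could be compared, 3 were at least 2-fold higher, against 5.33% of 732 genes, and none lower, against 6.15%. In microglia the sum differed by log2 0.00 between the same libraries.

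**Figure D4:**
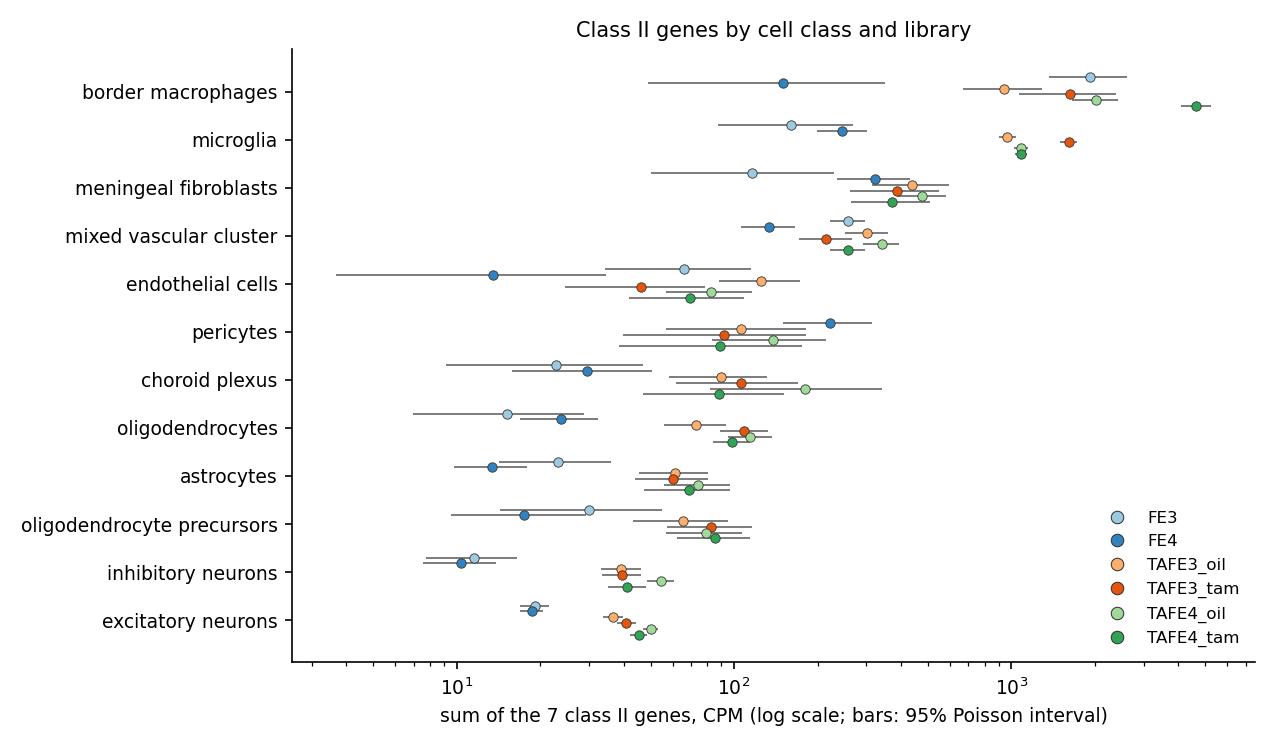
Sum of the 7 genes by cell class and library, in CPM on a log axis, with exact 95% Poisson intervals. The highest value is that of border macrophages in TAFE4 tamoxifen, and neurons and astrocytes lie far below microglia in every tau library.

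Excitatory neurons, astrocytes and oligodendrocytes held less class II RNA per UMI than microglia, and more of it in the tau libraries. The sum in excitatory neurons was 19.1 CPM in FE3, 18.7 CPM in FE4, and 36.6, 40.8, 50.03 and 45.3 CPM in the tau libraries. Cd74 there was 3.00 and 3.30 CPM without tau and 15.9, 18.1, 21.8 and 19.1 CPM with tau, and H2-DMa was 10.99, 10.1, 7.18, 7.60, 8.38 and 9.33 CPM. Of 5 members compared in neurons, 4 were at least 2-fold higher in TAFE3 oil over FE3 (background 3.61%, with 1.79% lower) and 4 in TAFE4 oil over FE4 (background 10.3%, with 1.92% lower). Astrocytes held 23.2 and 13.4 CPM without tau and 60.2 to 74.3 CPM with tau, and oligodendrocytes 15.2 and 23.7 CPM against 72.9 to 114.6 CPM. A cluster of mixed vascular nuclei held 133.4 to 340.3 CPM and meningeal fibroblasts 116.1 to 476.3 CPM, both reaching above the FE3 and FE4 microglia. Meningeal fibroblasts had a higher value in every tau library than in FE3 and FE4, on 8 UMIs in FE3 and 39 in TAFE4 tamoxifen. In TAFE3 oil 1 nucleus held 22 of their 40 UMIs, and in FE4 1 nucleus held 12 of 45. This order thus rests on few nuclei and UMIs. The mixed cluster and endothelial cells had a higher value in each tau oil library than in its FE library, endothelial cells on 12 and 4 UMIs without tau. In the mixed cluster 5 nuclei held 97 of the 186 FE3 UMIs, and 4 held 55 of the 125 in TAFE3 oil. The difference between these 2 libraries thus rests on few nuclei. In TAFE3 tamoxifen the mixed cluster and endothelial cells were below FE3, at 215.1 against 256.4 CPM and 46.1 against 66.1 CPM. Pericytes stood at 221.7 CPM in FE4 against 89.0 to 137.8 with tau, but 1 nucleus held 30 of the 31 FE4 UMIs. FE3 pericytes had 0 UMIs, so no order by tau can be read for them. Of all class II UMIs, 39.7% and 41.5% in FE3 and FE4 and 21.03% to 28.4% in the tau libraries lay in excitatory neurons, against 1.94% and 9.10% and then 29.4% to 42.6% in microglia. The part of free RNA in the counts of any class was not tested.

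The make-up of the class II UMIs differed between classes. Cd74 made up 49.0% to 53.0% of the class II UMIs of microglia in the tau libraries and 42.2% to 44.4% in excitatory neurons, while H2-DMa made up 3.76% to 6.63% in those microglia and 16.7% to 20.6% in those neurons. In FE3 and FE4, H2-DMa was 57.5% and 54.2% of the neuronal UMIs and Cd74 15.7% and 17.7%. Brd2, which lies across H2-DMa, stood at 57.5 to 69.9 CPM in these neurons, and its part in the H2-DMa counts there was not tested.

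**Figure D5:**
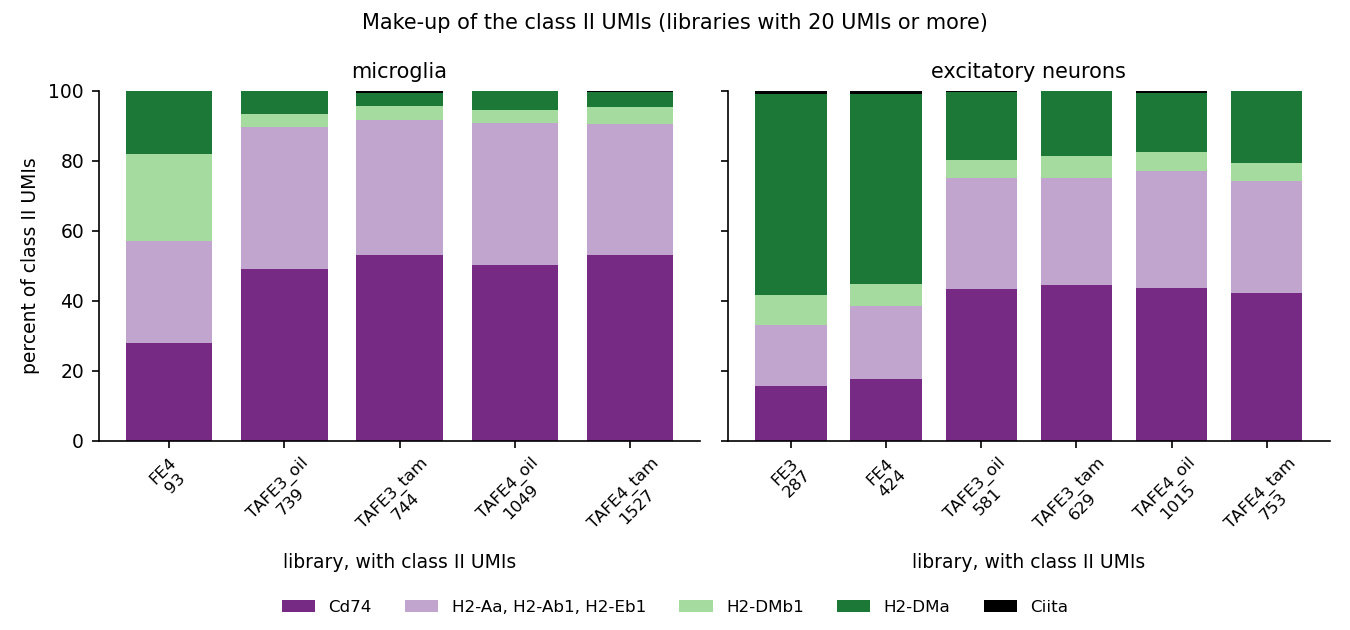
Share of the class II UMIs held by Cd74, by H2-Aa, H2-Ab1 and H2-Eb1 together, by H2-DMb1, by H2-DMa and by Ciita, in percent, in microglia and excitatory neurons of each library with at least 20 such UMIs. Cd74 holds 49.0% to 53.0% in microglia of the tau libraries, and H2-DMa holds 57.5% and 54.2% of the neuronal UMIs in FE3 and FE4.

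The wider pathway showed little of the difference seen in the presenting set. Of 32 other class II pathway genes listed, 31 were found. In TAFE3 oil over FE3, 18 could be compared in microglia, 2 were at least 2-fold higher, among them Ifi30, a lysosomal reductase, and 2 lower (Rfxap and Irf1). Over all genes, 3.49% were higher and 7.6% lower. Ifi30 rested on 1 UMI in FE3, Rfxap on 6 and Irf1 on 5, and the intervals of Rfxap and Irf1 included 0. In TAFE4 oil over FE4, 4 of 23 were higher, among them Ctsb, Ctsd and Irf1, and 1 lower (Nfyc), beside 12.3% and 4.05% of all genes. The Irf1 interval, on 5 UMIs in FE4, again included 0. The medians over the list were log2 0.41 and 0.23, beside −0.13 and 0.12 over all genes. Ctss, the cathepsin that trims the invariant chain in microglia and macrophages, stood at 1236.1 and 1168.3 CPM without tau and 1367.7 to 1603.8 CPM with tau (log2 0.35 [0.07, 0.65] for TAFE3 oil over FE3 and 0.23 [0.07, 0.39] for TAFE4 oil over FE4). Irf1, an interferon-induced activator of Ciita, stood at 57.2 and 13.2 CPM without tau and 26.2 to 45.3 CPM with tau. The Rfx factors were low, with Rfx5 at 0 to 21.3 CPM, Rfxap at 18.5 to 68.7 CPM and Rfxank at 4.32 to 12.1 CPM over the 6 libraries. In FE4 over FE3, 1 of 14 was higher, Creb1, on 1 UMI in FE3, beside 3.91% of all genes higher and 6.68% lower. With TAFE4 over TAFE3, none of 24 passed 2-fold with oil, beside 2.57% of all genes higher and 1.01% lower. With tamoxifen 2 of 23 were higher, H2-Ob and Cd274, on 2 and 6 UMIs in TAFE3, beside 5.1% higher and 2.28% lower. With tamoxifen over oil, none of 21 passed 2-fold in TAFE3 and 1 of 24 in TAFE4. Over all genes, 1.85% were higher and 3.11% lower in TAFE3, and 3.03% and 3.58% in TAFE4. Ifng, the interferon that induces class II, had no UMI in microglia of any library.

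Genes whose level in microglia ran in the same order over the 6 libraries as the class II sum were too many to single out, because 40 of 6979 genes had a Spearman correlation of 1.00. By the next measure, Pearson correlation of log2 levels, the first were Cotl1, Ccl4, Ccl3, Echs1 and Wwox, at 0.993 to 0.988. Ccl4, a chemokine of activated microglia, stood at 0, 7.93, 96.8, 127.4, 110.5 and 124.8 CPM in FE3, FE4, TAFE3 oil, TAFE3 tamoxifen, TAFE4 oil and TAFE4 tamoxifen. Over 64 sums of class and library the nearest were Unc93b1 (Spearman 0.819), Fyb (0.817), Grn (0.797), Ctsz (0.793) and Laptm5 (0.781). The points share libraries, cell counts and depth, so these are descriptions.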

How the data were processed

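Nuclei were isolated from frozen hippocampus, and 6 libraries were sequenced, 1 per group. The authors deposited raw UMI counts per gene and barcode, which per the file headers came from Cell Ranger 3.1.0. The submitters' processing notes name build mm10 and Seurat. From these counts, nuclei with at least 500 UMIs, 300 genes and at most 5% mitochondrial UMIs were kept, and doublets were left out with scrublet in scanpy 1.11.5. Scrublet called 1 doublet in TAFE3 oil, so there the 9.30% with the highest scores (1104 nuclei) were left out. Nuclei were clustered without class II genes (2000 variable genes, 30 components, 15 neighbours, Leiden resolution 1, leidenalg 0.10.2) into 31 clusters, and immune nuclei again into 9. Names came from marker lists.

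Counts were summed per library and class and given as CPM, scaled to the class total, with exact Poisson intervals. Ratios carry binomial intervals, exact and conditional on the total, and treat any count under 3 as 3. Each library pair was compared with no test, since groups hold 1 library; this also holds for counts past 2-fold, taken over all genes that reached 20 UMIs in the pair and 3 CPM in either library. Shares were also taken after thinning nuclei to 500 UMIs. All 7 members are described; of the pathway list, genes past 2-fold in the same direction in both tau pairs are named, with Irf1, Ctss and the Rfx genes whatever their values (some genes are not reported here), and genes in counts of 5 or fewer were named after their values were seen. The members, lists and comparisons were chosen with earlier results of these data known. Alternatives were other filters, kept doublets, another resolution, class II genes in the clustering and edgeR 4.0.16 scaling by TMM. The ratio calculation was tested on simulated data.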

Additional observations from a re-analysis of the deposited data

Results flagged for a closer look

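The class II sum in microglia of the tau libraries ran in opposite directions between APOE4 and APOE3: log2 0.16 with oil and −0.57 with tamoxifen. It was singled out because TAFE4 lay above TAFE3 with oil and below it with tamoxifen, in libraries without replicates, and the difference between these ratios was not tested. The oil value is not stable, since with no mitochondrial limit it was −0.08 [−0.18, 0.03], an interval that includes 0. Within microglial subcluster 1 the presenting set gave log2 −0.47 with oil and 1004.5 against 2009.0 CPM with tamoxifen, both lower in TAFE4, and within subcluster 0 it gave log2 0.39 and 0.09.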

How the results depend on the processing

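No paired analysis was possible because each group has 1 library. Over 8 alternatives (7 planned, 1 added after seeing the data), the class II sum gave 50 ratios, of which 31 stayed within the counting interval of the reported value. Among ratios whose interval excluded 0, 1 changed sign (TAFE4 over TAFE3 with oil), to a value whose interval included 0. FE4 over FE3 and TAFE4 tamoxifen over oil, whose intervals included 0, also changed sign under settings given below. The alternatives gave no value where a library had under 20 microglia: FE3 at 1000 UMIs and at 1% mitochondrial reads, and TAFE3 tamoxifen at 1%. FE4 over FE3, 0.62 in the report, was −0.62 with no mitochondrial limit and −0.74 with class II genes among the clustering genes. TAFE3 oil over FE3 was 1.33 and 1.25 under the same settings. FE3 held 14 UMIs in 97 nuclei in the report and 40 in 98 with class II genes among the clustering genes. TAFE4 oil over FE4 stayed between 1.87 and 2.36 and moved under none. TAFE3 tamoxifen over oil was 1.31 with at least 1000 UMIs and 0.29 with no mitochondrial limit. TAFE4 tamoxifen over oil was 0.19 at 1000 UMIs, −0.66 at 1% mitochondrial reads, 0.18 with no limit, −0.12 with doublets kept and 0.52 with the microglial cluster that holds neuronal RNA counted as microglia (the added alternative). TAFE4 over TAFE3 with oil was 0.33 at 1000 UMIs, 1.06 at 1% mitochondrial reads, −0.0757 with no limit and 0.023 with the added cluster. With tamoxifen it was −0.78 at 1000 UMIs, −0.19 with no limit, −0.70 with doublets kept and −0.31 with the added cluster. The cause was not tested. For Cd74 alone, 38 of 50 ratios stayed within their interval. FE4 over FE3, 0.59 for Cd74, was −1.21 with no mitochondrial limit, −1.31 with class II genes among the clustering genes and −0.55 with the added cluster. TAFE4 tamoxifen over oil, 0.08 for Cd74, was −0.78 at 1% mitochondrial reads and −0.0054 with doublets kept.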
